A study of Mus musculus with 5 samples.

Results

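Serotonin receptors were examined in the 14 annotated cell types of the mouse lumbar dorsal root ganglion (DRG), which holds the cell bodies of the sensory neurons of the trunk and hind limb. The 9 genes were chosen by name as receptors for serotonin, namely Htr3a, Htr3b, Htr1a, Htr1b, Htr1d, Htr1f, Htr2a, Htr2b and Htr7, and 8 of the 9 were matched to one of the 17267 gene rows of the count matrix. Htr2b was not analysed here. The cells came from 5 C57BL/6 mice, 3 males and 2 females aged 18 weeks, all wild type and untreated. There is thus 1 condition, and what is compared is one cell type with another in the same animals. The ganglia were dissociated with enzymes, loaded on a Chromium 3′ device and sequenced, and each captured transcript was counted once through its unique molecular identifier (UMI). The 3352 cells carry 5 library identifiers, which hold 164 to 1370 cells each and were taken as 1 mouse each and as the replicates. No label ties a library to an animal's sex.

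Serotonin is released in the periphery by platelets, mast cells and gut cells, and in the spinal cord by fibres descending from the brainstem, so that a sensory neuron can meet it at both of its ends. Its receptors fall into classes by how they signal. The receptors encoded by Htr3a and Htr3b are subunits of a cation channel that excites the cell within milliseconds, and the Htr3a subunit can form channels alone while the Htr3b subunit needs Htr3a. The Htr1 receptors couple to the inhibitory G proteins Gi and Go, lower cAMP and dampen transmitter release, and Htr1b, Htr1d and Htr1f are the targets of the triptans and related migraine drugs. The Htr2 receptors couple to Gq and phospholipase C, and Htr7 couples to Gs and raises cAMP.

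The type names were checked against their markers first. Each gene carried in the name of a neuron type, such as Calb1, Pvalb, Ntrk2, Mrgpra3, Mrgprd, Nts, Dcn, Sema5a, Trpm8 and Th, was highest in that type. The markers of whole classes were less even, since Nefh was 1772 CPM (the usual scaling of each sum of UMIs to one fixed total) in NF2_Ntrk2.Necab2, 5351 CPM in NF_Calb1 and 5533 CPM in NF_Pvalb, Tac1 was 283 CPM in PEP2_Htr3a.Sema5a against 3546 to 6434 in the 3 PEP1 types, and Calca was 446 CPM in PEP3_Trpm8 and 6715 to 13435 CPM in the other PEP types. For Nefh, NF2_Ntrk2.Necab2 ranked 4 among the 14 types, so a type outside NF held more of it. In these names NF stands for neurofilament-containing, NP for non-peptidergic and PEP for peptidergic neurons, and Th for the tyrosine hydroxylase type. The median number of UMIs per cell ran from 105150 in NP_Mrgprd to 30800.5 in PEP3_Trpm8 among neurons, and was 17729 in satellite glia and 16889 in endothelial cells. The libraries held 13050375 to 88886919 UMIs, and satellite glia made up 1.61% to 16.9% of the cells of a library. The summed level of the mast cell markers (2 of 3 listed genes matched) was at most 3.08 CPM in any type, in NP_Nts. Between libraries 7 cell barcodes were shared.

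In mm10 all 8 genes lie outside one another. Htr3a is on chromosome 9 from 48899213 to 48911099 on the minus strand, and Htr3b follows on the same strand from 48935008 to 48964990, with a gap of 23908 bp and no other annotated gene between them. Htr1b is also on chromosome 9, from 81628291 to 81633828. Htr1a is on chromosome 13 from 105443639 to 105448122, Htr1d on chromosome 4 from 136423524 to 136444398, Htr1f on chromosome 16 from 64924729 to 65105854, Htr2a on chromosome 14 from 74640840 to 74709494 and Htr7 on chromosome 19 from 35958734 to 36057507. Htr3a overlaps the gene Gm32335 and Htr1b overlaps D430036J16Rik, and whether these overlaps affect their counts was not tested.

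The DNA just before the start of 5 of these genes is shown because they give the separate patterns described below, Htr1f and Htr1a with their highest level in the same non-peptidergic type, Htr1d and Htr7 in the neurofilament types, and Htr3b with a ratio to Htr3a that varies between types. Sequences are from RefSeq on GRCm38.p6 (the assembly of mm10), matched for 8 of the 9 genes, written 5′ to 3′ on the strand of the gene and cut at the first start annotated in RefSeq or GENCODE. Capitals mark TGTGGT, a core recognised by RUNX factors, and ATTAAT, a core found in sites of POU homeodomain factors such as Pou4f1, both of which act in sensory neuron development. The CRE half-site TGACGT was searched as well, and all searches covered both strands.
Htr1f: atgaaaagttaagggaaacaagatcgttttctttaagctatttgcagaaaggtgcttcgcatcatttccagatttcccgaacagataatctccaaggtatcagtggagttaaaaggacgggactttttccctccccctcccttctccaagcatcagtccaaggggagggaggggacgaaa
Htr1a: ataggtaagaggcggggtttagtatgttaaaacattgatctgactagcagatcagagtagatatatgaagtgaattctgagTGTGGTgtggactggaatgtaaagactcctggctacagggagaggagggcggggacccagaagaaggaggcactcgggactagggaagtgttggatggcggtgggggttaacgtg
Htr1d: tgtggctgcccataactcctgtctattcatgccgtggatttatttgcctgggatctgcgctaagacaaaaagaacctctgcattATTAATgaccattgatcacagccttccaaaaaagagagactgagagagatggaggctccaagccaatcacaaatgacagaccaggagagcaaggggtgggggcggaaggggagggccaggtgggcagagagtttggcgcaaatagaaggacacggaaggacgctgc
Htr7: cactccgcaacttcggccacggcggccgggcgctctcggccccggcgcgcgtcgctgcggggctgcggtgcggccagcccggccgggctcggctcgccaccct
Htr3b: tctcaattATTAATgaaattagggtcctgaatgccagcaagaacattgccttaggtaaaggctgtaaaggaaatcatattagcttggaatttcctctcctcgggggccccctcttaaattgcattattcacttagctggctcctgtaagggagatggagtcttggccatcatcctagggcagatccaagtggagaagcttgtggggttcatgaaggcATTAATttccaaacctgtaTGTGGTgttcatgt
These stretches are chr16:65105855-65106034 (minus strand), chr13:105443443-105443638 (plus), chr4:136423274-136423523 (plus), chr19:36057508-36057610 (minus) and chr9:48964991-48965240 (minus). Htr3b held ATTAAT at 2 places and TGTGGT at 1, with the TGTGGT 9 bases before the start. Of all 32851 promoters in the table, 4.39% held ATTAAT and 14.05% held TGTGGT in the same window. Htr1d held ATTAAT 1 time, in a window where again 4.39% of promoters hold it, and Htr1a held TGTGGT 1 time, as did 11.4% of promoters. Htr1f and Htr7 held none of the 3 motifs in these windows. The Htr7 stretch was 82.5% G and C, a content that only 0.831% of all promoters reached over the same window. Such matches describe the letters and are not binding sites.

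RNA of 6 of the 8 receptors was found at clear levels, and each had its own set of neuron types. The plot of levels and shares by type shows the whole pattern. Counted over all cells, Htr3a had 15422 UMIs, Htr1f 8688, Htr3b 2811, Htr1d 2578, Htr1a 1916 and Htr7 756, whereas Htr2a had 69 and Htr1b 16. Of the Htr1f UMIs 91.9% were in NP_Nts, of the Htr1a UMIs 76.6% were in NP_Nts, and of the Htr3a UMIs 64.2% were in PEP2_Htr3a.Sema5a. Htr1d, Htr3b and Htr7 were spread more widely, with 35.2%, 34.9% and 46.2% of their UMIs in the type that held most.

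**Figure D1:**
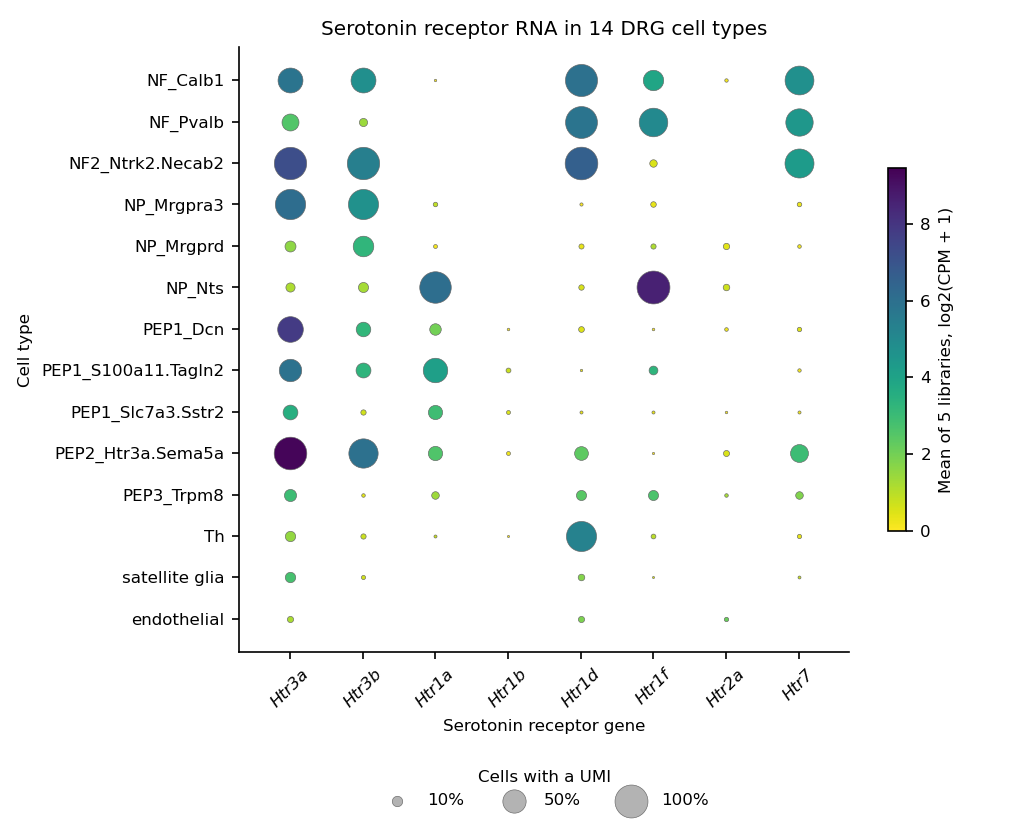
Level of 8 serotonin receptor genes (columns) in 14 DRG cell types (rows), with colour for log2(CPM + 1) of the mean CPM over 5 libraries and dot area for the share of cells with at least 1 UMI. Htr3a is darkest in PEP2_Htr3a.Sema5a (634 CPM) and Htr1f in NP_Nts (382 CPM), Htr1d and Htr7 share the 3 NF types, and the columns of Htr1b and Htr2a are nearly empty.

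For each type, its UMI sums per library were compared with the sums per library of the remaining cells in edgeR's quasi-likelihood test, without pairing by library. A gene was called at a Benjamini-Hochberg adjusted p under 0.01 and a change of at least 2-fold. The authors formed the types by clustering these same counts, so the calls describe how far types differ. Over 14 types, 84 pairs of a receptor and a type could be tested, of which 16 were called higher and 51 lower. Over all genes, 9.32% of tests were called higher and 16.4% lower. In the 12 neuron types the 16 were out of 72 pairs, beside 7.66% of all tests, and 42 were lower, beside 13.7%. NF_Calb1 and NF2_Ntrk2.Necab2 had 3 receptors called higher each, beside 14.8% and 7.79% of all genes. NF_Pvalb, NP_Nts and PEP2_Htr3a.Sema5a had 2 each, beside 13.4%, 6.13% and 8.74%. NP_Mrgpra3, PEP1_Dcn, PEP1_S100a11.Tagln2 and Th had 1 each, beside 3.12%, 6.87%, 3.98% and 7.06%. No receptor was called higher in NP_Mrgprd, PEP1_Slc7a3.Sstr2, PEP3_Trpm8, satellite glia or endothelial cells, where 5.82%, 6.93%, 7.28%, 21.4% and 17.4% of all genes were, and in these 5 types the log2 fold of all 6 tested receptors was below 0. Of the 6 receptors tested in a type, 2 were lower in NF_Calb1 (15.8% of all genes), NF2_Ntrk2.Necab2 (13.5%) and PEP2_Htr3a.Sema5a (10.6%), and 3 in NF_Pvalb (17.5%), PEP1_S100a11.Tagln2 (8.36%), PEP3_Trpm8 (11.1%) and endothelial cells (34.2%). The count was 4 in NP_Mrgpra3 (11.6%), NP_Nts (18.5%) and PEP1_Dcn (8.28%), 5 in NP_Mrgprd (21.7%), PEP1_Slc7a3.Sstr2 (12.1%) and Th (13.9%), and 6 in satellite glia (32.5%). The other cells always include the type where a receptor peaks, so a call of lower can meet a type that still holds the gene. When each type was instead set against the mean of the fitted log levels of the other types, each type counting alike, 31 pairs were called higher and 10 lower. That mean is a geometric one, in which types near 0 weigh heavily, so it differs from the summed cells in more than the weights.

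**Figure D2:**
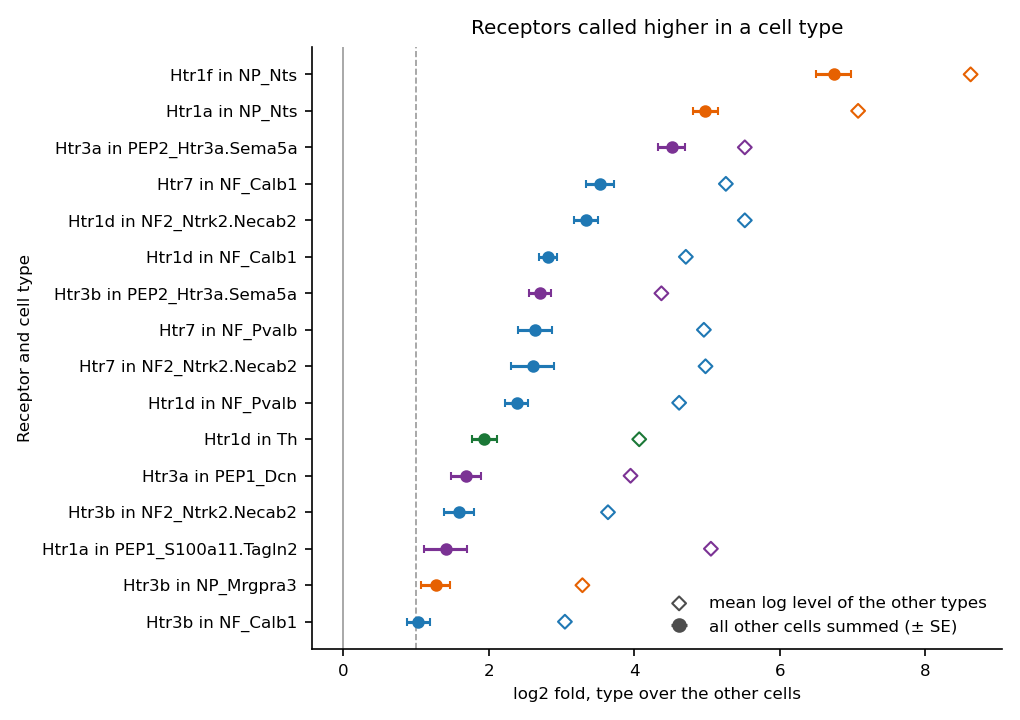
The 16 receptor and type pairs called higher, with the log2 fold of the type over all other cells summed (filled circles, ± SE derived from the F statistic of the fit, 5 libraries per side) and the log2 fold over the mean log level of the other types (open diamonds), a geometric mean that types near 0 pull down. The dashed line is the 2-fold minimum, filled circles run from 1.03 to 6.74, and each diamond lies to the right of its circle.

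The channel subunit Htr3a was highest in PEP2_Htr3a.Sema5a, a type that carries its name, so its level there is a description. In libraries 1 to 5 it was 824, 509, 677, 591 and 569 CPM. PEP1_Dcn came next with 188, 286, 227, 170 and 254 CPM. NF2_Ntrk2.Necab2 had 269, 84.4, 106, 157 and 118 CPM, where library 1 rests on 3 cells. Every PEP2_Htr3a.Sema5a library lay above every library of the other types, while PEP1_Dcn and NF2_Ntrk2.Necab2 overlapped. The mean was 634 ± 122 CPM (SD, n = 5) in PEP2_Htr3a.Sema5a, 225 ± 47.5 in PEP1_Dcn and 147 ± 73.2 in NF2_Ntrk2.Necab2. The within-library difference was 409 ± 156 CPM between PEP2_Htr3a.Sema5a and PEP1_Dcn and 78.4 ± 112 CPM between PEP1_Dcn and NF2_Ntrk2.Necab2, the latter inside its spread. NP_Mrgpra3 followed with 67.6 ± 26.4, PEP1_S100a11.Tagln2 with 58.0 ± 22.1 and NF_Calb1 with 55.2 ± 23.3 CPM, and these 3 did not differ beyond their spread. Against the other cells, the log2 fold was 4.51 (SE 0.19, adjusted p = 5.5e-09) in PEP2_Htr3a.Sema5a and 1.69 (SE 0.20, adjusted p = 1.3e-05) in PEP1_Dcn by edgeR. In NF2_Ntrk2.Necab2 it was 0.88 (SE 0.24, adjusted p = 0.0063), under the 2-fold minimum.

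Satellite glia, which should lack the channel, held Htr3a at 5.93 ± 2.13 CPM, with a UMI in 10.0% of cells. After thinning every cell to 10000 UMIs, which no cell fell short of, the share was 5.81% in satellite glia, 5.62% in NF_Pvalb, 2.19% in NP_Mrgprd, 1.93% in Th and 1.76% in NP_Nts (26.5%, 11.1%, 9.91% and 7.75% of cells unthinned). Per UMI these 4 neuron types therefore stood at or below satellite glia, and PEP3_Trpm8 (6.83 ± 7.98 CPM) and PEP1_Slc7a3.Sstr2 (10.6 ± 8.16 CPM) overlapped them. Per cell the mean was 0.104 Htr3a UMIs in satellite glia, 0.381 in NF_Pvalb, 0.226 in NP_Mrgprd, 0.108 in Th and 0.085 in NP_Nts. In NP_Mrgprd 4 cells held 11 to 20 UMIs each, 29.1% of the Htr3a UMIs of the type. Whether the glial UMIs measure a background for deeper cells was not tested. By contrast the thinned share was 89.1% in PEP2_Htr3a.Sema5a, 64.3% in NF2_Ntrk2.Necab2, 46.6% in PEP1_Dcn and 36.1% in NP_Mrgpra3.

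Within several types Htr3a was uneven from cell to cell. In NF2_Ntrk2.Necab2 96.6% of cells held a UMI, with a median of 10 per cell, but in PEP1_Dcn only 60.7% did, although the mean per cell was 13.1 UMIs against 12.7 in NF2_Ntrk2.Necab2. In PEP1_Dcn 17.2% of cells held 30 or more UMIs and 39.3% held 0. If the UMIs had been spread over cells in proportion to depth, 0.110% of PEP1_Dcn cells would have held 0. NF_Calb1, with 42.8% of cells at 0 against 4.88% if even, and PEP1_S100a11.Tagln2, with 53.6% against 6.06%, showed a like excess. More cells at 0 than if even were also seen in NP_Mrgpra3 (15.4% against 1.16%). The same held for NF2_Ntrk2.Necab2 (3.45% against 0.0629%) and PEP2_Htr3a.Sema5a (1.94% against 0.00019%). What underlies the excess was not tested. The median depth of the PEP1_Dcn cells with and without a UMI was 55388 and 43304 UMIs.

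**Figure D3:**
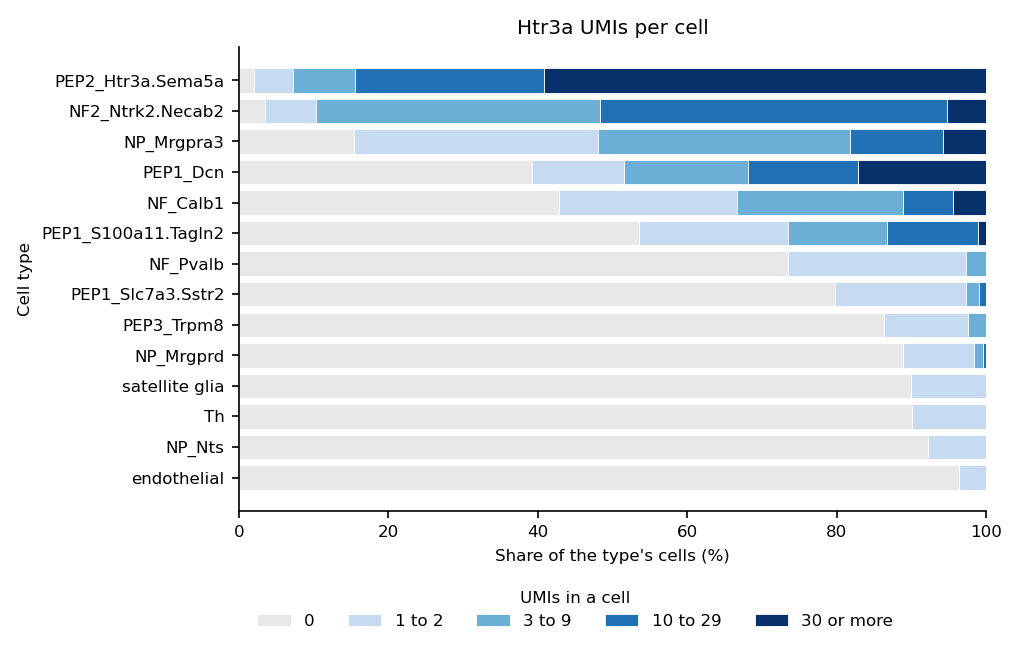
Share of the cells of each type (horizontal axis, %) that held 0, 1 to 2, 3 to 9, 10 to 29 or 30 or more Htr3a UMIs, with types ordered by the share at 0. PEP2_Htr3a.Sema5a and NF2_Ntrk2.Necab2 have under 4% of cells at 0, while PEP1_Dcn combines 39.3% at 0 with 17.2% at 30 or more.

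The cells of PEP1_Dcn, NF_Calb1 and PEP1_S100a11.Tagln2 were split by whether they held an Htr3a UMI. This split was made after the values were seen and is given without a test. In PEP1_Dcn the 99 cells with Htr3a held Dcn, the gene that names the type, at 230 ± 239 CPM and the 64 cells without at 1113 ± 665 CPM, lower with Htr3a in 5 of 5 libraries. Ntrk2, the receptor for BDNF, was also lower with Htr3a in 5 of 5 libraries (42.2 ± 18.3 against 141 ± 78.7 CPM). In library 1 the PEP1_Dcn values rest on only 4 cells, with and without Htr3a together. Sema5a, the second gene in the name of PEP2_Htr3a.Sema5a, was higher with Htr3a in 4 libraries and lower in 0 (22.2 ± 16.2 against 2.78 ± 1.80 CPM). The Htr3a cells of PEP1_Dcn thus differed from the rest of the type in its naming gene. In NF_Calb1 the 103 cells with Htr3a held Htr3b at 37.7 ± 3.19 CPM and the 77 without at 10.7 ± 6.55 CPM, higher in 5 of 5 libraries. Htr1f ran the other way there, at 8.94 ± 4.60 against 20.3 ± 7.34 CPM, lower with Htr3a in 4 of 5 libraries. Nefh (5255 ± 1153 against 5448 ± 954 CPM) and Calca (176 ± 142 against 179 ± 92.9 CPM) differed by less than their spread. Ntrk2 was 159 ± 39.9 CPM with and 86.3 ± 29.4 without Htr3a, and Calb1, the naming gene, 240 ± 134 against 164 ± 34.7 CPM, each higher with Htr3a in 4 of 5 libraries. In PEP1_Dcn Nefh was 294 ± 185 against 100.4 ± 21.98 CPM, also higher in 4 of 5. The level of NF_Calb1 rested on few cells, as 20 of its 180 cells, with 10 to 62 UMIs each, held 67.6% of its Htr3a UMIs. Those 20 held Htr3b at 79.0 CPM and the other cells of the type at 20.4 CPM.

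Htr3b, the second subunit, was highest in PEP2_Htr3a.Sema5a as well, but the order of the other types differed from that of Htr3a. Its level in libraries 1 to 5 was 70.4, 47.6, 64.3, 56.1 and 64.9 CPM in PEP2_Htr3a.Sema5a, a mean of 60.7 ± 8.92. In NF2_Ntrk2.Necab2 it was 71.7, 32.5, 34.1, 38.2 and 28.4 CPM, with library 1 far above the rest. NF_Calb1 (26.6 ± 5.33 CPM) and NP_Mrgpra3 (25.02 ± 7.11 CPM) formed a step lower and did not differ from each other beyond their spread. NP_Mrgprd, the most numerous type, had 8.93, 6.10, 12.98, 6.81 and 7.76 CPM, where Htr3a was below the CPM of satellite glia. A UMI of Htr3b was found in 39.0% of NP_Mrgprd cells (exact 95% interval 35.8% to 42.3%) and in 1.61% of satellite glia, or in 7.52% and 0.888% at 10000 UMIs per cell. PEP1_Dcn, second for Htr3a, had a like Htr3b level of 8.47 ± 5.47 CPM, as did PEP1_S100a11.Tagln2 with 8.997 ± 5.40, beside 8.52 ± 2.71 in NP_Mrgprd. By edgeR Htr3b was called higher in PEP2_Htr3a.Sema5a (log2 fold 2.71, SE 0.15, adjusted p = 2.1e-08), NF2_Ntrk2.Necab2 (1.59, SE 0.20, adjusted p = 9.4e-06), NP_Mrgpra3 (1.27, SE 0.20, adjusted p = 0.00012) and NF_Calb1 (1.03, SE 0.16, adjusted p = 4.9e-05). The call in NF_Calb1 lay at the 2-fold minimum and was lost without library 4 (0.98), without library 5 (0.95) and under 3 other settings. In NP_Mrgprd the log2 fold was -0.73 (SE 0.18, adjusted p = 0.0029), under 2-fold.

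The number of Htr3b UMIs per 100 Htr3a UMIs therefore differed between types. No length correction was made, since the 3′ assay counts 1 end per transcript. The ratio was 4.41 in PEP1_Dcn (1.44 to 6.49 over libraries), 9.92 in PEP2_Htr3a.Sema5a (8.55 to 11.4), 13.2 in PEP1_S100a11.Tagln2 (4.76 to 40.0), 26.7 in NF2_Ntrk2.Necab2 (24.2 to 38.5), 38.5 in NP_Mrgpra3 (25.8 to 46.7) and 51.1 in NF_Calb1 (40.4 to 91.7). In NP_Mrgprd, with Htr3a below the CPM of satellite glia, it was 352 (209 to 717). The library ranges of PEP1_Dcn, PEP2_Htr3a.Sema5a and NF2_Ntrk2.Necab2 did not overlap one another, and those of NF2_Ntrk2.Necab2 and NP_Mrgpra3 did. The wide range of PEP1_S100a11.Tagln2 overlapped those of PEP1_Dcn, PEP2_Htr3a.Sema5a, NF2_Ntrk2.Necab2 and NP_Mrgpra3.

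**Figure D4:**
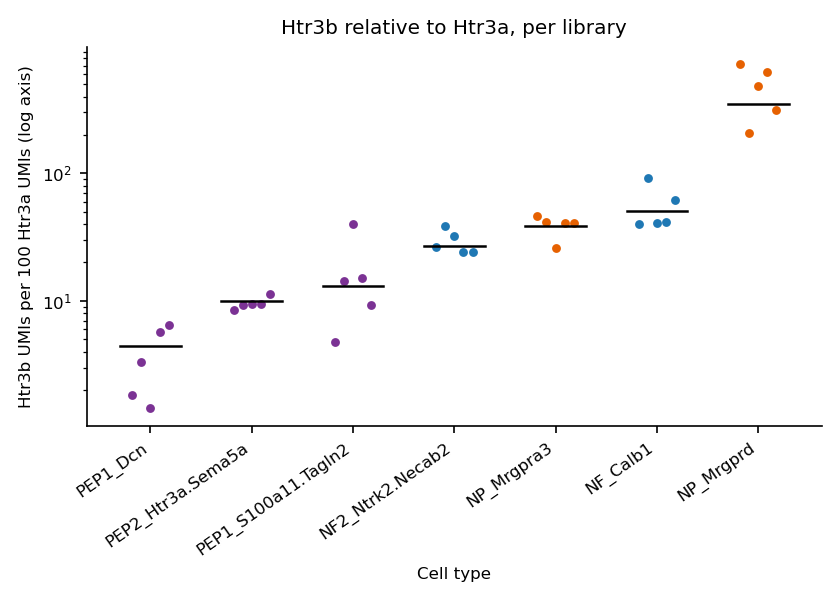
Htr3b UMIs per 100 Htr3a UMIs in 7 neuron types, on a log axis, with 1 point per library and a bar for all libraries pooled. The peptidergic types PEP1_Dcn and PEP2_Htr3a.Sema5a lie at 1.44 to 11.4, the NF2_Ntrk2.Necab2, NP_Mrgpra3 and NF_Calb1 libraries at 24.2 to 91.7 and NP_Mrgprd at 209 to 717. The peptidergic type PEP1_S100a11.Tagln2, at 4.76 to 40.0, spans the gap between the first 2 of these ranges.

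Both subunits were also counted together in single cells. In NF_Calb1 79 cells held a UMI of both, where the product of the 2 shares within libraries gives 60.0, and the number exceeded the product in 5 of 5 libraries. Htr3b was found in 76.7% of the NF_Calb1 cells with Htr3a and in 31.2% of those without, at median depths of 81279 and 73778 UMIs. PEP1_S100a11.Tagln2 had 30 such cells against 18 (5 of 5 libraries), PEP1_Dcn 29 against 19.5 (4 of 5) and NP_Mrgprd 51 against 39.0 (5 of 5). In NF2_Ntrk2.Necab2 nearly every cell held both (54 against 54.2 cells), so little excess was possible. In PEP2_Htr3a.Sema5a 202 of 206 cells held Htr3a, which also left little room, and 162 held both against 160. NP_Mrgpra3 had 76 against 74.4 cells (3 of 5 libraries), and NP_Nts had 0 against 2.58. In NP_Mrgprd 300 cells held Htr3b with no Htr3a UMI and 51 held both.

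Htr1f and Htr1a, both coupled to Gi and Go, met in NP_Nts, the type with the highest RNA of the peptides neurotensin (Nts) and somatostatin (Sst). Htr1f was 379, 315, 481, 379 and 358 CPM there in libraries 1 to 5, and the next type, NF_Pvalb, had 9.59, 27.7, 36.9, 52.3 and 28.9 CPM. The lowest NP_Nts library was thus far above the highest NF_Pvalb library. The means were 382 ± 60.7 and 31.1 ± 15.5 CPM, a ratio of 12.3. The log2 fold of NP_Nts against the other cells was 6.74 (SE 0.24, adjusted p = 5.2e-11 by edgeR), the steepest of the 16. A UMI was found in 399 of 400 NP_Nts cells, with a median of 19 per cell, and in 96.1% of cells at 10000 UMIs. Outside NP_Nts, NF_Pvalb (75.2% of cells) and NF_Calb1 (13.8 ± 3.57 CPM, 38.3% of cells) carried Htr1f, while NF2_Ntrk2.Necab2 had 0.467 ± 0.643 CPM. Because NP_Nts is among the other cells, NF_Calb1 was called lower (log2 fold -1.53, adjusted p = 0.00066 by edgeR), while against the mean log level of the other types, most of which were near 0, the log2 fold was 3.39.

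Htr1a was 64.3, 60.7, 64.9, 63.5 and 76.3 CPM in NP_Nts and 9.96, 16.7, 17.9, 13.9 and 26.3 CPM in PEP1_S100a11.Tagln2, the second type. These means of 66.0 ± 6.02 and 17.0 ± 6.07 CPM did not overlap, and all other types lay under 7 CPM, led by PEP1_Slc7a3.Sstr2 (6.66 ± 2.32) and PEP2_Htr3a.Sema5a (5.02 ± 1.77). NF_Calb1 held 1 Htr1a UMI in 180 cells, NF_Pvalb and NF2_Ntrk2.Necab2 held none, and satellite glia held none in 249 cells, which allows a UMI in up to 1.205% of such cells. Such limits bear on cells with a UMI at the depth of the type, not on cells that express the gene. By edgeR the log2 fold was 4.98 (SE 0.18, adjusted p = 5.2e-11) in NP_Nts and 1.41 (SE 0.30, adjusted p = 0.002) in PEP1_S100a11.Tagln2. The second call was lost without library 2 or library 5 (adjusted p = 0.011 in each). A UMI of Htr1a was found in 91.5% of NP_Nts, 55.2% of PEP1_S100a11.Tagln2, 18.9% of PEP2_Htr3a.Sema5a, 18.7% of PEP1_Slc7a3.Sstr2, 12.3% of PEP1_Dcn and 5.36% of PEP3_Trpm8 cells, and in 1.92% of NP_Mrgpra3, 1.44% of NP_Mrgprd and 0.862% of Th cells.

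In NP_Nts, 366 cells held a UMI of both Htr1a and Htr1f, against 365 from the product of the shares. This pair, like Htr1d with Htr7, was added after the values were seen. A few cells of other types stood out for Htr1f. In NP_Mrgprd 5 of 900 cells held 10 to 23 Htr1f UMIs, which made up 64.1% of the type's Htr1f UMIs. Of these 5 cells 2 held an Sst UMI and 2 an Nts UMI, and pooled over the 5 the level was 223 CPM for Sst and 97.7 CPM for Nts, against 0.479 and 5.09 CPM in the other NP_Mrgprd cells. In PEP1_S100a11.Tagln2 3 of 181 cells, from 2 libraries, held 14 to 24 UMIs and 70.7% of the Htr1f UMIs, with Nts and Sst at 0 and Htr1a at 58.8 against 18.8 CPM. The level of 9.002 ± 12.6 CPM in PEP1_S100a11.Tagln2 rests on these 3 cells. Whether such cells are pairs of cells in 1 droplet was not tested.

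Htr1d, the other abundant Gi-coupled receptor, marked the neurofilament and Th types. In libraries 1 to 5 it was 75.3, 126, 101, 91.6 and 89.1 CPM in NF2_Ntrk2.Necab2, and 53.0, 73.1, 50.9, 62.2 and 64.0 CPM in NF_Calb1. NF_Pvalb had 55.6, 58.3, 47.0, 48.0 and 66.4 CPM, and Th, a type of low-threshold C fibres, had 30.8, 31.0, 34.0, 48.3 and 45.5 CPM. The NF2_Ntrk2.Necab2 libraries were all above those of the other types, NF_Calb1 and NF_Pvalb overlapped, and every one of these libraries was above the remaining types. The means were 96.4 ± 18.6, 60.6 ± 8.99, 55.1 ± 7.98 and 37.9 ± 8.33 CPM. Within libraries NF2_Ntrk2.Necab2 exceeded NF_Calb1 by 35.8 ± 14.2 CPM and NF_Calb1 exceeded NF_Pvalb by 5.59 ± 8.60, inside its spread. All 4 were called higher by edgeR, with log2 folds of 3.34 (SE 0.17), 2.81 (SE 0.12), 2.38 (SE 0.15) and 1.94 (SE 0.17) and adjusted p values from 2.4e-10 to 3.2e-07. A UMI was found in 98.3%, 95%, 93.8% and 83.6% of their cells, and in 4.02% of satellite glia. After those 4 the level dropped to 4.52 ± 4.91 CPM in PEP3_Trpm8 and 4.06 ± 2.71 CPM in PEP2_Htr3a.Sema5a, near the 2.35 ± 0.748 CPM of satellite glia, and it was under 0.5 CPM in the 3 NP and the 3 PEP1 types.

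Htr7, the Gs-coupled receptor, shared the NF types with Htr1d but was near 0 in Th. Its level in libraries 1 to 5 was 32.2, 23.9, 18.8, 34.0 and 20.8 CPM in NF_Calb1, 26.8, 20.7, 17.6, 19.9 and 18.6 CPM in NF_Pvalb, and 7.17, 23.8, 24.4, 21.8 and 17.1 CPM in NF2_Ntrk2.Necab2. The 3 types overlapped, with means of 26.0 ± 6.83, 20.7 ± 3.61 and 18.8 ± 7.12 CPM, although within libraries NF_Calb1 was above NF_Pvalb in 5 of 5 (5.21 ± 5.21 CPM). PEP2_Htr3a.Sema5a followed with 6.87 ± 1.80 CPM, higher than PEP3_Trpm8 (2.43 ± 1.67 CPM) in 5 of 5 libraries, and Th had 0.262 ± 0.163 CPM. NF2_Ntrk2.Necab2 was above PEP2_Htr3a.Sema5a in 4 of 5 libraries. Its library 1, of 3 cells, lay within the PEP2_Htr3a.Sema5a range of 5.09 to 9.71 CPM. The log2 folds by edgeR were 3.53 (SE 0.19, adjusted p = 1.8e-09) in NF_Calb1, 2.64 (SE 0.23, adjusted p = 1.5e-07) in NF_Pvalb and 2.603 (SE 0.29, adjusted p = 2.8e-06) in NF2_Ntrk2.Necab2, while PEP2_Htr3a.Sema5a had 0.84 (SE 0.25, adjusted p = 0.0097), under 2-fold. In 400 NP_Nts cells no Htr7 UMI was found, which allows a UMI in up to 0.750% of them. In NF_Calb1 131 cells held both Htr1d and Htr7, against 131 from the product, in NF_Pvalb 73 against 73.1 and in NF2_Ntrk2.Necab2 45 against 44.3.

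**Figure D5:**
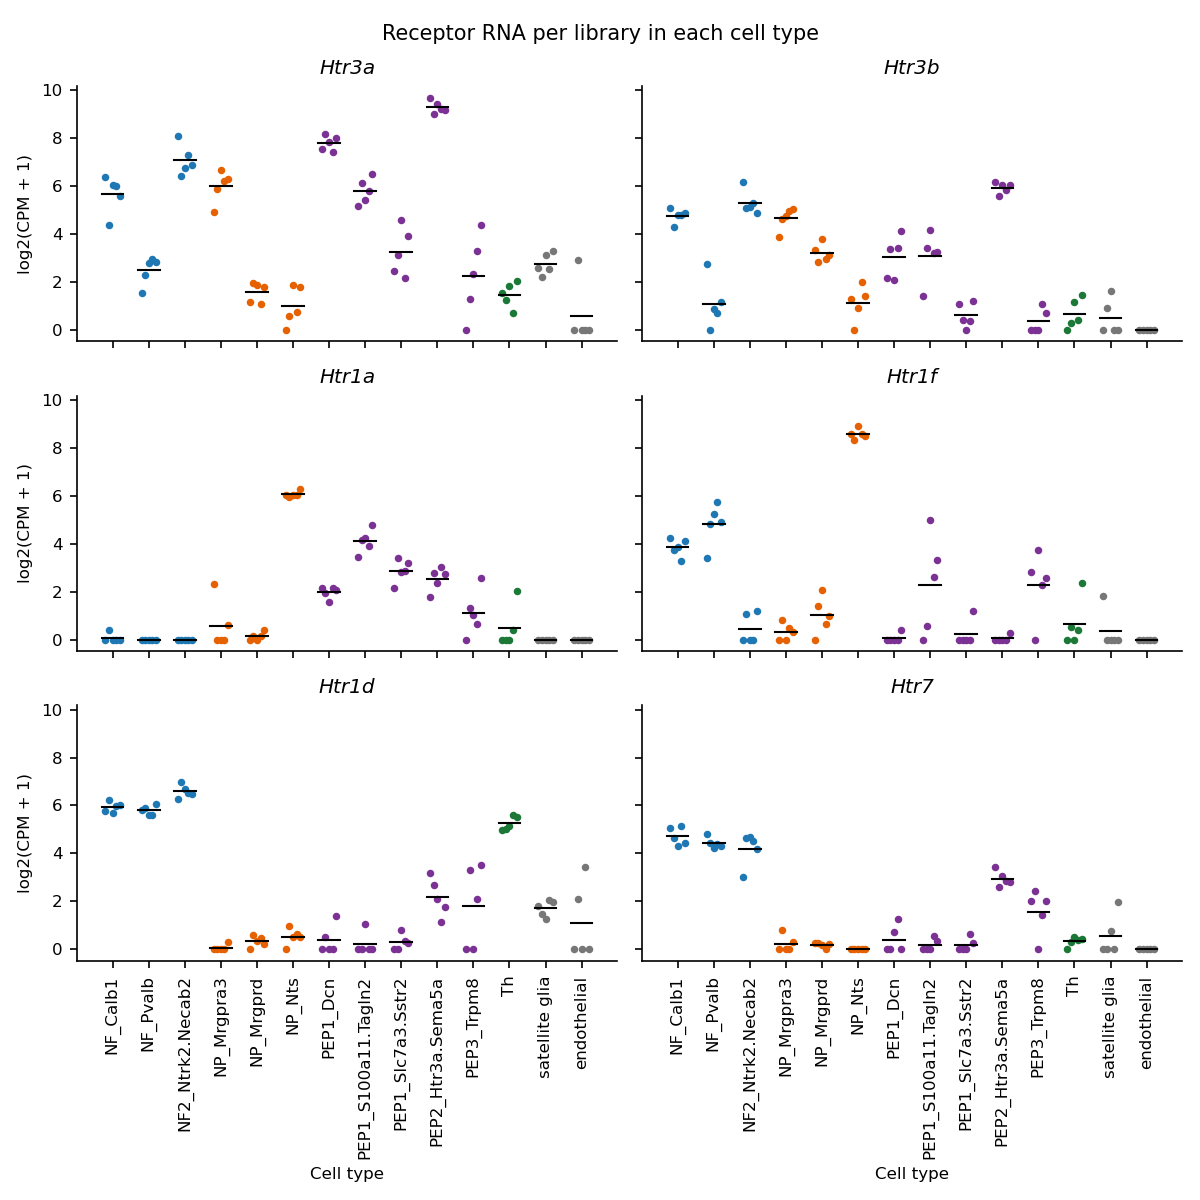
Level of 6 receptors in each of 14 cell types on a log2(CPM + 1) scale, with 1 point per library and a bar for the mean of the points, blue for NF, orange for NP, purple for PEP, green for Th and grey for non-neuronal types. Htr1a and Htr1f peak in NP_Nts, and Htr1d separates the 3 NF types and Th from the rest. Htr7 has its highest means in the 3 NF types. There library 1 of NF2_Ntrk2.Necab2 (7.17 CPM) lies within the range of PEP2_Htr3a.Sema5a (5.09 to 9.71 CPM).

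Htr1b and Htr2a were close to the detection limit in every type. Htr1b, which shares ligands with Htr1d, had 16 UMIs in 14 cells, all of them neurons (0.459% of 3047). Its highest level was 0.740 ± 0.635 CPM in PEP1_S100a11.Tagln2, in 2.21% of cells (exact 95% interval 0.605% to 5.56%). In NF_Calb1, where 95% of cells held Htr1d, no Htr1b UMI was found in 180 cells, which allows a UMI in up to 1.67% of them. Htr2a, the Gq-coupled member, had 69 UMIs in 66 cells, of which 34 were NP_Mrgprd cells (3.78%, interval 2.63% to 5.24%) and 16 NP_Nts cells (4%, interval 2.30% to 6.41%). Satellite glia had no Htr2a UMI in 249 cells, which allows a UMI in up to 1.205% of them. Neither gene passed the filter on low counts in any type, so neither has a test.

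The receptors a type combined followed from these levels. At a mean of at least 5 CPM, NF_Calb1 had 5 receptors (Htr3a, Htr3b, Htr1d, Htr1f, Htr7), NF2_Ntrk2.Necab2 had 4 (Htr3a, Htr3b, Htr1d, Htr7), PEP2_Htr3a.Sema5a 4 (Htr3a, Htr3b, Htr1a, Htr7), PEP1_S100a11.Tagln2 4 (Htr3a, Htr3b, Htr1a and, through 3 cells, Htr1f) and NF_Pvalb 3 (Htr1d, Htr1f, Htr7). NP_Nts had only Htr1a and Htr1f, Th only Htr1d and NP_Mrgprd only Htr3b. NP_Mrgpra3 and PEP1_Dcn had Htr3a and Htr3b, PEP1_Slc7a3.Sstr2 had Htr3a and Htr1a, and PEP3_Trpm8 had Htr3a and Htr1f. Satellite glia passed as well, for Htr3a (5.93 ± 2.13 CPM), so the cutoff does not separate a low level from the glial one. Htr1a in PEP2_Htr3a.Sema5a lay at the cutoff, at 5.02 ± 1.77 CPM. Summed over the 8 genes, the level was 711 ± 132 CPM in PEP2_Htr3a.Sema5a, 452 ± 62.1 in NP_Nts and 303 ± 70.0 in NF2_Ntrk2.Necab2, down to 19.1 ± 9.55 in PEP1_Slc7a3.Sstr2 and 12.7 ± 3.99 in NP_Mrgprd among neurons and 10.1 ± 3.22 in satellite glia. Every NF cell held a UMI of at least 1 receptor. In NF2_Ntrk2.Necab2 42 of 58 cells held 4 or more of the 8, in NF_Calb1 71 of 180, and in NP_Mrgprd 3 of 900, although its cells were the deepest.

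Against satellite glia, the summed neurons had all 6 tested receptors called higher, beside 32.6% of all genes (21.6% were lower). The log2 folds were 3.65 for Htr3a (SE 0.31), 3.79 for Htr3b (SE 0.50), 7.20 for Htr1f (SE 0.92), 2.33 for Htr1d (SE 0.34) and 2.97 for Htr7 (SE 0.80), with adjusted p from 5.4e-09 to 0.0027 by edgeR. Htr1a was at 7.65 ± 2.77 CPM in neurons and had 0 UMIs in satellite glia. Over all 249 glial cells there were 26 UMIs of Htr3a, 10 of Htr1d, 4 of Htr3b, 2 of Htr7 and 1 of Htr1f. The sizes of the last 3 folds therefore rest on very few glial counts. The Htr7 call was lost without library 2, 3 or 4 (log2 fold 2.59, 3.34 and 2.59, adjusted p = 0.016, 0.011 and 0.011).

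Other genes of serotonin signalling were taken as a list of 29, all found in the matrix. The serotonin transporter Slc6a4, the synthesis enzyme Ddc and the receptors Htr2c, Htr5a and Htr6 were too low to be tested in any type. Over the 14 types, 268 tests of the list gave 35 calls higher and 69 lower (13.1% and 25.7%, beside 9.32% and 16.4% of all genes). In the 3 NF types the list had 3 higher and 8 lower of 20 tested in NF_Calb1 (14.8% and 15.8% of all genes), 5 and 10 of 20 in NF_Pvalb (13.4% and 17.5%) and 5 and 3 of 19 in NF2_Ntrk2.Necab2 (7.79% and 13.5%). The median log2 folds of the list were -0.78, -0.71 and -0.41, beside -0.028, -0.068 and -0.066 over all genes tested. Among the receptors, Htr4, which is coupled to Gs, was higher in NP_Mrgprd (3.58 ± 0.506 against 0.454 ± 0.233 CPM in the other cells, log2 fold 3.39, SE 0.25, adjusted p = 4.4e-08 by edgeR). Htr5b was higher in Th (8.94 ± 3.05 against 1.82 ± 0.615 CPM, log2 fold 2.33, SE 0.28, adjusted p = 6.6e-06) and in NF2_Ntrk2.Necab2 (log2 fold 1.39, adjusted p = 0.0048). Ric3, a chaperone that assists the assembly of Htr3a channels, was higher in NF_Calb1 (58.6 ± 6.33 CPM, log2 fold 1.42, SE 0.10) and NF_Pvalb (53.4 ± 4.45 CPM, log2 fold 1.23, SE 0.12). Of these types only NF_Calb1 held Htr3a at a higher mean CPM than satellite glia.

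The coupling genes were unevenly spread as well. Gnai1, the alpha subunit of 1 of the inhibitory G proteins, was higher in all 3 NF types, with 104 ± 9.29 CPM in NF_Calb1, 164 ± 14.4 in NF_Pvalb and 132 ± 17.9 in NF2_Ntrk2.Necab2 (log2 folds 1.04, 1.77 and 1.44, adjusted p at most 2.1e-07 by edgeR). The other alpha subunits of that class did not follow, since Gnao1 and Gnai2 were lower in NF_Calb1 (log2 folds -1.12 and -1.32) and in NF_Pvalb (-2.87 and -2.16), and Gnai3 was lower in NF_Pvalb (-1.48). NP_Nts, with Htr1a and Htr1f, had Gnal (576 ± 32.0 CPM), Plcb3 (135 ± 18.1 CPM) and Gch1 (34.4 ± 3.62 CPM), the first enzyme of the cofactor for serotonin synthesis, called higher, with log2 folds of 1.14, 1.06 and 1.74. The phospholipase Plcb1 was higher in PEP2_Htr3a.Sema5a (51.9 ± 12.1 against 8.27 ± 1.12 CPM, log2 fold 2.64, SE 0.14, adjusted p = 1.9e-08 by edgeR). It was also called higher in NF_Pvalb, NF2_Ntrk2.Necab2 and PEP1_S100a11.Tagln2 (log2 folds 1.11, 1.56 and 1.32). Endothelial cells, likewise called higher, had its highest mean, 57.0 CPM. Maoa, which breaks down serotonin, was higher in Th (99.5 ± 31.6 against 42.9 ± 1.77 CPM, log2 fold 1.25, SE 0.15), and Maob in PEP3_Trpm8 (15.5 ± 4.97 against 1.26 ± 0.777 CPM, log2 fold 3.55, SE 0.40). Maob was also called higher in PEP1_Dcn (10.7 ± 11.5 CPM, log2 fold 3.50) and PEP2_Htr3a.Sema5a (4.19 ± 1.79 CPM, log2 fold 1.55). Tph1, the peripheral synthesis enzyme, was called higher in NP_Mrgprd at only 0.801 ± 0.475 CPM.

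Likeness of patterns was measured by Pearson's r of mean log2(CPM + 1) over the 14 types, as a description of types that share libraries. The genes most like Htr3a were Smpd3 (r = 0.89), Mmp23 (0.86) and Trhde (0.86), and Htr3b came 6th among all genes (0.84). For Htr3b they were Mob3b (0.87), Otud7a (0.86) and Gm20939 (0.85). Those most like Htr1a were Gcnt7 (0.93), the neuropeptide Y receptor gene Npy2r (0.92) and the cAMP phosphodiesterase gene Pde4c (0.92). Htr1f was closest to AI317395 (0.92), Trpm6 (0.87) and Il31ra (0.83), the receptor for the itch cytokine IL-31, whose level in NP_Nts was 286 CPM. Htr1d was closest to Pde4d (0.96), Gabrb2 (0.96) and Gm13446 (0.96), and Htr7 to 1500012K07Rik (0.98), Hhatl (0.97) and Focad (0.96). Between members, Htr1d and Htr7 had r = 0.82, Htr1a and Htr1f 0.50, and Htr1a and Htr1d -0.49.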

How the data were processed

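UMI counts per gene and cell were deposited by the authors, made with Cell Ranger 2.0.0 (genome mm10, UCSC gene model) and not normalized, together with 1 cell type per cell as text. The authors filtered cells on genes detected and mitochondrial reads and clustered them with Seurat 3.0.1. No removal of doublets is named in the methods, and no doublet caller was run here. Here UMIs were summed per type and library and given as CPM, and 4 rows that name no mouse gene (143 UMIs) were left out. The test was that of edgeR 4.0.16 under R 4.3.3 (filterByExpr, TMM, quasi-likelihood test, 11778 to 13265 genes per type), with Benjamini-Hochberg adjustment over all genes tested, after a check on simulated data. The SE of a log2 fold is its absolute value divided by the square root of the F statistic of that test. Replicates are libraries, each taken as 1 mouse, so p-values measure the spread between these libraries. Both sums of a comparison come from the same library and so the same animal; after removing group means, their correlation across genes was -0.021 to 0.40, above 0.1 in 38 of 70 cases.

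Exact Clopper-Pearson intervals (95%) and limits for 0 (3 counts) cover counting error only. The summed level of the satellite glia marker list is not reported here. Members and lists were chosen with earlier results of these data known. The genes named are the 9 receptors, the 29 of the pathway list and the 3 genes most like each receptor that reached 5 CPM in a type, with the type markers. Alternatives were DESeq2 1.42.0, no filter on low counts, the library as a block, an adjusted p under 0.05, a UMI in at least 25% of cells, sums of at least 10 cells, other neurons only, the mean log level of the other types, leaving out cells over 10% mitochondrial UMIs (188) or over 2 times the type's median UMIs (67), thinning to 10000 or 30000 UMIs, and leaving out each library.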

Additional observations from a re-analysis of the deposited data

Results flagged for a closer look

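Of 18 sets of 5 library values tested for a library far from the others, 3 had one, where chance alone gives about 1 in 20 sets. Htr1a in NP_Nts was 76.3 CPM in library 5 and 60.7 to 64.9 CPM in the other 4 libraries. Htr3b in NF2_Ntrk2.Necab2 was 71.7 CPM in library 1, which holds 3 cells of that type, and 28.4 to 38.2 CPM in the others, and its call of higher was kept under all 13 alternatives, the fit without library 1 included. Htr2a in endothelial cells was 17.2 CPM in library 1 and 0 in the other 4, and this value is 1 UMI in 1 of 3 cells.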

How the results depend on the processing

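Called values kept their direction and call in 858 of 922 alternative results, 58 lost the call and 6 changed sign. Of these, 35 and all 6 came from setting each type against the mean of the fitted log levels of the other types, each type counting alike. This changes the weights and also replaces summed cells by a geometric mean, in which types near 0 weigh heavily. Under it 31 pairs were called higher and 10 lower, against 16 and 51, and the log2 folds of the 6 were 3.39 for Htr1f in NF_Calb1, 2.21 for Htr1a in PEP1_Dcn, 2.60 for Htr1f in PEP1_S100a11.Tagln2, 0.33 for Htr1d in PEP2_Htr3a.Sema5a, 1.96 for Htr1f in PEP3_Trpm8 and 0.12 for Htr1a in Th. Leaving out 1 library gave 14 to 17 pairs higher and 48 to 51 lower, and 5 to 6 receptors higher in neurons against satellite glia. With the replicate block there were 16 pairs higher and 53 lower, and no called pair lost its call. Shares of cells with a UMI depended on depth: at 10000 UMIs per cell they fell from 79.1% to 38.6% for Htr3b in PEP2_Htr3a.Sema5a, from 91.5% to 48.2% for Htr1a in NP_Nts and from 76.7% to 20.9% for Htr7 in NF_Calb1. NF2_Ntrk2.Necab2 and endothelial sums rest on as few as 3 cells in a library, which limits their precision.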

Other observations

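Genes for amine handling were also high outside the neurons. Endothelial cells had Gch1 at 304 ± 43.5 CPM and 10.7 ± 1.21 in all other cells (log2 fold 4.82, SE 0.15, adjusted p = 7e-14 by edgeR), and Maoa at 174 ± 55.9 against 46.6 ± 4.27 CPM (log2 fold 1.85, SE 0.18, adjusted p = 7.3e-08). Satellite glia also had Gch1 higher (34.4 ± 11.2 CPM, log2 fold 1.83, SE 0.19, adjusted p = 1.6e-07). The vesicular monoamine transporter gene Slc18a1 was low throughout but higher in the 3 NF types, with 5.23 ± 2.79 CPM in NF_Calb1, 6.48 ± 3.35 in NF_Pvalb and 4.56 ± 1.16 in NF2_Ntrk2.Necab2 (log2 folds 2.31, 2.71 and 2.00, adjusted p at most 5.7e-05 by edgeR). The phospholipase gene Plcb3 was higher in NP_Mrgprd (109 ± 18.6 CPM, log2 fold 1.43) and NP_Nts, and lower in Th (1.30 ± 1.25 CPM), PEP3_Trpm8, satellite glia, endothelial cells and the 3 NF types.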
